A study of Arabidopsis thaliana with 16 samples.

Results

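In the elongation zone of salt-treated Arabidopsis thaliana roots, 40 genes stood higher on NaCl than on standard medium by at least 1.5 on the log2 scale, while the same difference stayed below 0.6 in the 3 other zones sampled. The genes were picked from group means of log2(signal + 16), where the signal is the brightness of a probe set, the group of array probes that reads 1 transcript. A member had NaCl minus standard at least 1.5 in zone 3, both NaCl arrays above both standard arrays there, a difference below 0.6 in zones 1, 2 and 4, and one above -0.8 in zone 4. It also had a probe set that names it alone. Class III peroxidases, expansins and lipid transfer family genes were left out. The 40 members are 40 of 22746 probe sets other than controls, and 40 of the 13355 genes that the probe table names alone on a probe set. Since the salt differences chose them, those differences are given below as a description, without a test.

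Seedlings of the ecotype Columbia were grown for 5 days and moved to standard medium or to the same medium with 140 mM NaCl, and after 1 h their roots were divided into 4 zones. Zone 1 was the tip, about 150 µm long, and zone 2 another 200 µm, roughly up to where the meristem ends. Zone 3 took a further 200 to 300 µm, stopping short of the first hairs, while zone 4 was the older stretch above it, some 1000 µm long. The 4 zones on 2 media made 8 groups, each with 2 arrays of RNA from about 15 pooled sections, with no transgene or mutant in any group.

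In zone 3 cells stop dividing and lengthen many times over as their walls are loosened, and in zone 4 they take on their final form. There hairs emerge, walls thicken, and the endodermis, the inner sleeve of cells that screens what enters the vascular tissue, lays down lignin and later suberin. High salt withdraws water, brings in sodium, slows elongation and calls up abscisic acid, the hormone of water shortage.

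Arrays had median signals of 58.6 to 76.9, and the log2 values of replicate arrays correlated at 0.981 to 0.986 across probe sets. Signals of a root section are sums over its cell types, so fewer cells of a type and less RNA per cell cannot be told apart. EXPA7 and EXPA18, expansin genes of root hairs, stayed near background in standard zones 1 and 2, with means of 25.2 and 39.2 in zone 1, and stood at 2098 and 1357 in zone 3. XTH26, another hair gene, had a mean of 3.54 in standard zone 3 and of 168 in standard zone 4. SCN1, also listed as a hair gene, went another way and was well above background at the tip. Its standard means were 490 in zone 1, 972 in zone 2, 2018 in zone 3 and 1388 in zone 4. Probe sets naming Casparian strip genes of the endodermis such as CASP1 to CASP5 were not among those analysed here.

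The rule fixed a large difference in zone 3 and capped it elsewhere, so the values by zone describe what it picked. The members' median difference, NaCl minus standard, was 1.84 in zone 3 on the log2 scale, with a range from 1.54 to 3.16, against 0.03 in zone 1, 0.07 in zone 2 and 0.00 in zone 4. Over all 22746 probe sets the medians were 0.05, 0.03, 0.00 and -0.02 in zones 1 to 4. Of the 40, 10 lay within 0.3 of no difference in every other zone. The share over all probe sets was not counted, so nothing is read from this number. Both NaCl arrays exceeded both standard arrays for 11 members in zone 1 (29.4% of all probe sets did), for 8 in zone 2 (27.2%) and for 11 in zone 4 (21.2%). They lay below for 6 members in zone 1 (20.2%), 8 in zone 2 (23.1%) and 8 in zone 4 (25.1%). The caps of the rule bear on these shares, and nothing is read from them.

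**Figure D1:**
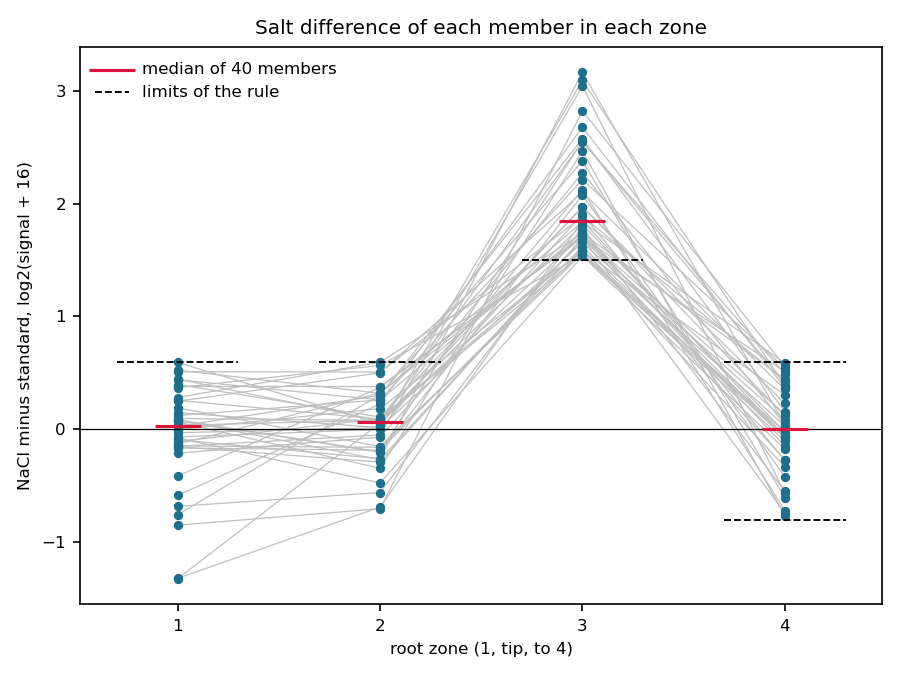
NaCl minus standard of each of the 40 members (dots, joined by lines) in zones 1 to 4, in log2(signal + 16), with the median of the members (red) and the limits of the rule (dashed). The medians are 0.03, 0.07, 1.84 and 0.00, and the dots in zone 1 reach down to -1.32.

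Of the 457 probe sets that met both conditions in zone 3, 171 had a difference of 0.6 or more in zone 1, 232 in zone 2 and 248 in zone 4, and 26 lay at -0.8 or less in zone 4. The 4 limits left 106, of which 43 named 1 gene, 1 named several and 62 were unnamed. Removing 3 class III peroxidase genes gave the 40. By the test across all probe sets, 12.6% of those measured passed as higher in zone 3 on NaCl and 13.2% as lower.

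AT5G43150, a gene to which no role is given here, had the largest zone 3 difference of the members, 3.16. Its standard arrays read 44.03 and 54.5 in zone 1, 29.7 and 24.3 in zone 2, 86.4 and 126 in zone 3 and 2861 and 2379.9 in zone 4. On NaCl they read 48.2 and 41.96 in zone 1, 24.4 and 15.8 in zone 2, 1010.1 and 1119 in zone 3 and 2633 and 2743 in zone 4. The zone 3 arrays on NaCl thus lay far above those on standard medium, and still below both standard arrays of zone 4. In the other zones the salt difference lay between -0.26 and 0.04.

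**Figure D2:**
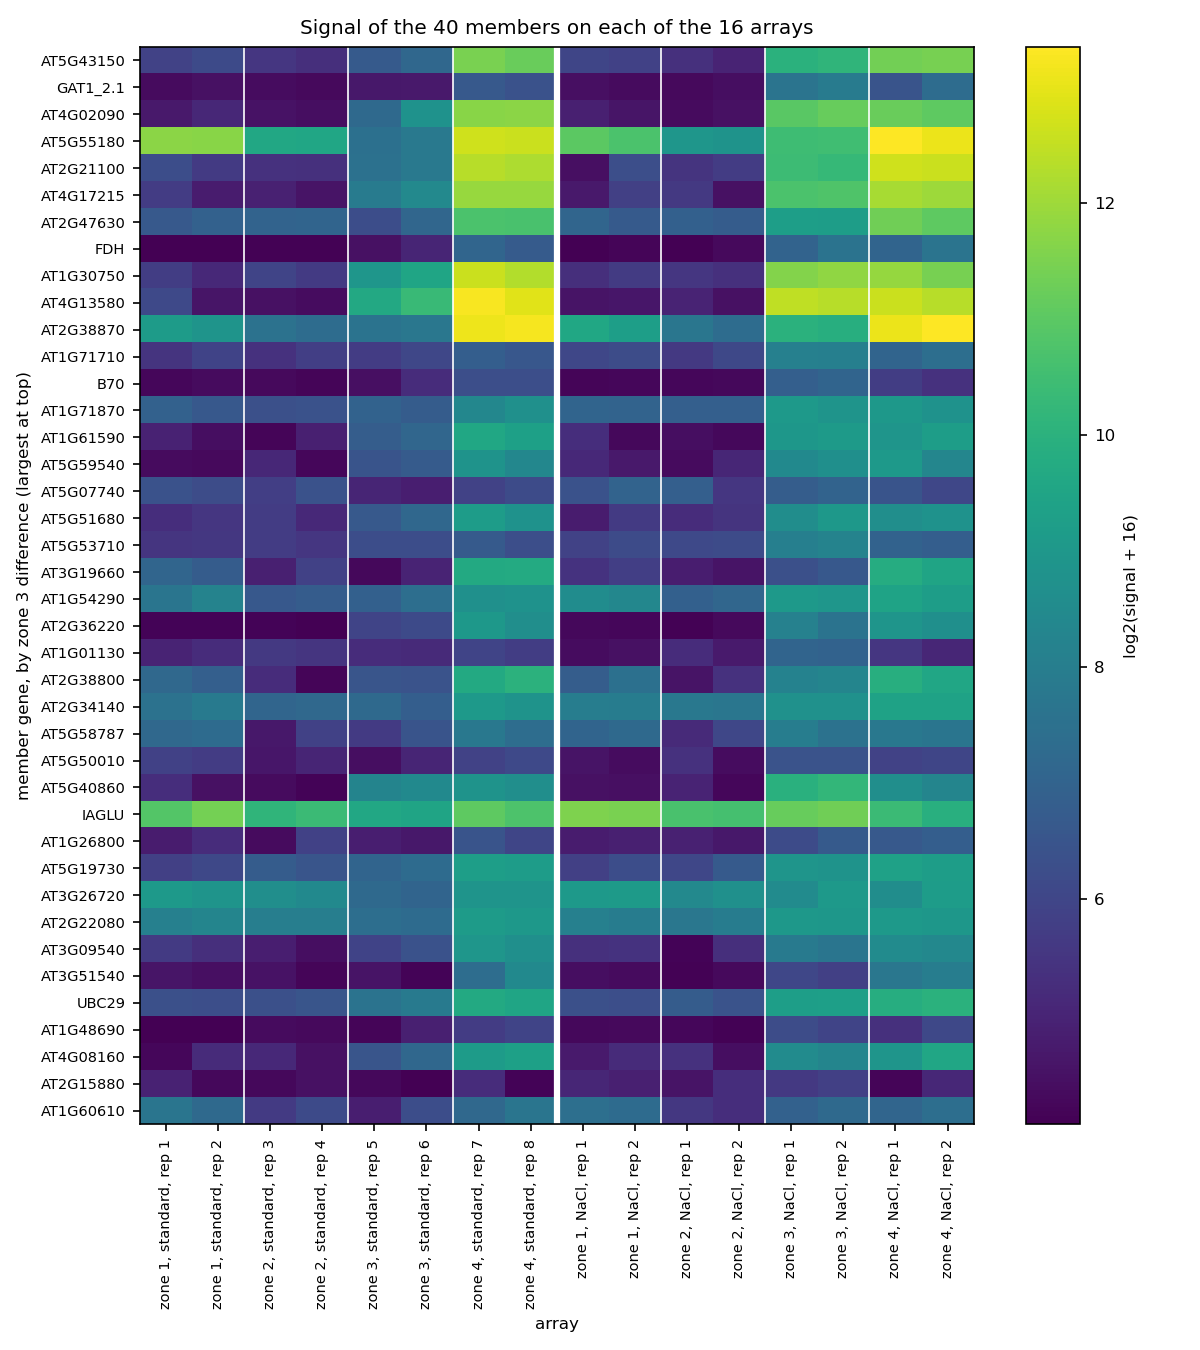
Signal of the 40 members as log2(signal + 16), by colour, on each of the 16 arrays, with standard arrays to the left of the thick line and members ordered by their zone 3 difference. AT5G43150, at the top, reads 86.4 and 126 on the standard zone 3 arrays and 1010.1 and 1119 on the NaCl ones, and for most members the zone 4 columns are bright on both media.

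Enzymes and structural proteins of the cell wall made up 8 of the members, with zone 3 differences from 1.54 to 2.82. The largest was in AT5G55180, of a glucanase family that cuts wall glucans. It read 3367 and 3297 in zone 1, 776 and 745 in zone 2, 164 and 210.3 in zone 3 and 6545 and 6202 in zone 4 on standard medium, and 2034 and 1667 in zone 1, 481 and 442 in zone 2, 1377 and 1441 in zone 3 and 10149.7 and 8676 in zone 4 on NaCl. This gene dipped in standard zone 3 between a high tip and a high zone 4. On NaCl its tip and zone 2 signals were below the standard ones, with differences of -0.85 and -0.70. AT5G19730, for a pectin methylesterase, an enzyme that strips methyl groups from pectin, read 119 and 141 on standard medium and 462 and 441 on NaCl in zone 3, a difference of 1.68. AT3G09540, of the pectate lyases, which cut pectin chains, read 45.1 and 69.00 on standard medium and 218 and 186 on NaCl. For AT4G08160, a xylanase that cuts the xylan of hemicellulose, the zone 3 arrays read 75.8 and 129 on standard medium and 356 and 293 on NaCl. AT2G15880, of the leucine-rich repeat extensins that sit in the wall, was faint, with 3.304 and 1.09 on standard medium and 32.9 and 41.1 on NaCl. Its NaCl zone 3 arrays were the highest of all 16, yet both lay below 41.4, the level used to call a probe set measured.

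Another wall member, the mannosidase gene AT3G26720, whose kind of enzyme trims mannose from glycans, differed by its high level everywhere except standard zone 3. Its standard arrays read 509 and 455 in zone 1, 385 and 339.7 in zone 2, 134 and 118 in zone 3 and 454 and 445 in zone 4. Its NaCl arrays read 533 and 536 in zone 1, 328 and 408 in zone 2, 353 and 526 in zone 3 and 372 and 566 in zone 4. Zone 3 on NaCl overlapped zone 4 of either medium, so that the zone 3 dip of the standard root was not seen on NaCl.

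The 2 dirigent genes among the wall members, AT2G21100 and AT4G13580, belong to a family that steers the coupling of lignin building blocks. AT2G21100 read 61.1 and 34.2 in zone 1, 25.7 and 24.5 in zone 2, 171 and 210.0 in zone 3 and 5132 and 4703 in zone 4 on standard medium, and 5.68 and 63.2 in zone 1, 27.5 and 36.9 in zone 2, 1358 and 1240.1 in zone 3 and 6438 and 6253 in zone 4 on NaCl. For AT4G13580 the standard arrays read 52.9 and 8.04 in zone 1, 6.44 and 4.79 in zone 2, 799 and 1304 in zone 3 and 9735 and 7799 in zone 4. On NaCl it read 7.76 and 8.46 in zone 1, 15.7 and 6.49 in zone 2, 5580.1 and 5177 in zone 3 and 6244 and 5249.8 in zone 4. In both genes zone 3 went from a middle level to a high one, by 2.68 and 2.38 on the log2 scale, and remained below both standard zone 4 arrays. In zone 4 itself the salt difference was 0.37 for the first and -0.60 for the second, and the arrays of the 2 media did not overlap there in either gene.

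AT1G61590, known as SGN1, encodes a kinase at the outer face of endodermal cells that helps seal the Casparian strip, their lignin ring. Its standard arrays read 15.3 and 5.08 in zone 1, 2.33 and 13.2 in zone 2, 95.7 and 124.4 in zone 3 and 756 and 638 in zone 4, and its NaCl arrays 22.4 and 3.11 in zone 1, 5.09 and 3.18 in zone 2, 485 and 540.5 in zone 3 and 457 and 581 in zone 4. The zone 3 difference was 2.08, and the NaCl zone 3 arrays reached the range of NaCl zone 4 but not of standard zone 4. The receptor gene SGN3 (GSO1), which acts in the same pathway and is no member, rose in zone 3 by 1.00 (SE 0.23, adjusted p = 0.00388, limma), from 462 ± 91.9 to 936 ± 76.7 (SD, n = 2). That call was lost without standard replicate 5 of zone 3, at 0.81 (adjusted p = 0.0632). Of the 22 endodermal barrier genes listed for this comparison, the probe table named SGN1 and SGN3 alone, and the others may be among the 8730 probe sets it leaves unnamed.

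Transcription factors were 3 of the members. B70, a basic helix-loop-helix factor gene, read 2.65 and 4.03 in zone 1, 3.78 and 2.21 in zone 2, 5.71 and 21.8 in zone 3 and 61.96 and 62.9 in zone 4 on standard medium, and 2.195 and 2.698 in zone 1, 2.91 and 3.05 in zone 2, 101 and 117 in zone 3 and 37.98 and 26.05 in zone 4 on NaCl. Its NaCl zone 3 arrays were the highest of all 16, and in zone 4 the NaCl arrays lay below the standard ones, a difference of -0.72. AT5G50010, another basic helix-loop-helix factor gene, was faint on every array, with 5.43 and 16.5 on standard medium and 71.5 and 69.99 on NaCl in zone 3 and 42.4 and 36.7 against 7.71 and 4.69 in zone 1. Its difference was thus 1.72 in zone 3 and -1.32 in zone 1. AT2G34140, of the Dof zinc finger factors, read 134 and 97.6 on standard medium and 417 and 422 on NaCl in zone 3, a difference of 1.74, next to 0.59 in zone 2 and 0.44 in zone 4.

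Genes that act in signalling within the cell, and a gene that acts on actin filaments, gave similar zone 3 differences. AT1G71710, for an inositol polyphosphate 5-phosphatase, an enzyme that clears inositol phosphate signals, read 28.1 and 44.7 in zone 1, 25.3 and 38.8 in zone 2, 36.4 and 50.6 in zone 3 and 98.9 and 78.8 in zone 4 on standard medium. On NaCl it read 49.6 and 59.1 in zone 1, 32.3 and 51.4 in zone 2, 261 and 255 in zone 3 and 117 and 157 in zone 4. No other group reached its NaCl zone 3 level, and its differences in zones 1, 2 and 4 were 0.44, 0.26 and 0.54. AT2G38800, for a calmodulin-binding protein, read 76.3 and 71.1 on standard medium and 272 and 298 on NaCl in zone 3, and 821 and 1018 on standard medium in zone 4. AT5G07740, for a formin, a protein that starts actin filaments, had its lowest standard level in zone 3, at 16.6 and 12.96, and read 95.8 and 113 there on NaCl.

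Protein turnover was the role of 5 members. AT2G38870, for a small inhibitor of serine proteinases, was among the brightest. It read 549 and 445 in zone 1, 171 and 147 in zone 2, 177 and 199.5 in zone 3 and 8883 and 9446 in zone 4 on standard medium and 764 and 604 in zone 1, 195 and 145 in zone 2, 1003 and 939 in zone 3 and 8596 and 10374 in zone 4 on NaCl. The zone 3 difference of 2.27 took it from near the level of zone 2 to one still far below zone 4, where the 2 media overlapped. UBC29, for an enzyme that hands ubiquitin on to ligases, read 175 and 212 on standard medium and 598 and 619.6 on NaCl in zone 3. The genes of 3 RING ubiquitin ligases, which tag proteins for removal, were fainter. AT5G58787 read 33.9 and 73.3 on standard medium and 239 and 173 on NaCl in zone 3, AT1G26800 read 12.5 and 9.25 on standard medium and 57.4 and 87.1 on NaCl, and AT1G60610 read 13.02 and 60.3 on standard medium and 108 and 134 on NaCl.

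Among genes of metabolism and transport, GAT1_2.1, of the glutamine amidotransferases, had the second largest zone 3 difference, 3.09. It read 4.09 and 6.59 in zone 1, 4.68 and 3.72 in zone 2, 9.25 and 9.99 in zone 3 and 85.4 and 68.3 in zone 4 on standard medium, and 5.51 and 4.22 in zone 1, 3.72 and 5.12 in zone 2, 182 and 225 in zone 3 and 73.9 and 147 in zone 4 on NaCl. The NaCl zone 3 arrays were again the highest of all 16. A further probe set that names this gene alone was below 41.4 on average in every group and gave -0.76 in zone 3, so the probe sets of this gene disagree. It was the only member with another probe set. FDH, for formate dehydrogenase, which oxidises formate, was at most 3.78 in zones 1 and 2. In zone 3 it read 6.48 and 16.8 on standard medium and 115 and 177 on NaCl, and in zone 4 it read 122 and 90.9 on standard medium and 117 and 181 on NaCl.

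IAGLU, whose enzyme joins glucose to the auxin indole-3-acetic acid in the annotation, was bright in all zones. Its standard arrays read 1845 and 2719 in zone 1, 1102 and 1330.2 in zone 2, 779 and 700.1 in zone 3 and 2092 and 1699 in zone 4, and its NaCl arrays 2988 and 2856 in zone 1, 1633 and 1528 in zone 2, 2314 and 2557 in zone 3 and 1310.0 and 959 in zone 4. Like the mannosidase gene it was lowest in standard zone 3, and its NaCl arrays of zone 4 lay below the standard ones, a difference of -0.74. AT1G48690, of the GH3 family, some of whose enzymes join auxin to amino acids, was faint, with 2.47 and 13.1 on standard medium and 58.9 and 46.2 on NaCl in zone 3. The carrier gene AT1G71870, of the MATE family that exports small molecules, read 110.2 and 93.6 on standard medium and 530.3 and 449.9 on NaCl there. AT5G59540, of the dioxygenases that depend on 2-oxoglutarate, read 72.9 and 90.5 on standard medium and 339.6 and 395 on NaCl, and AT2G47630, of the lipases that act on monoacylglycerols, read 60.4 and 123 on standard medium and 598 and 579 on NaCl. The initiation factor gene AT1G54290, of the SUI1 family that acts in choosing the start codon, read 103 and 153 on standard medium and 514 and 469 on NaCl. Its differences of 0.52 in zone 1 and 0.59 in zone 4 sat just under the limit of 0.6.

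No role is given here to the other 12 members, which include AT5G43150. AT4G02090 read 9.68 and 17.9 in zone 1, 7.17 and 5.13 in zone 2, 136 and 432 in zone 3 and 3272 and 3346 in zone 4 on standard medium, and 13.2 and 8.24 in zone 1, 4.33 and 6.46 in zone 2, 1967 and 2309 in zone 3 and 2372 and 2094 in zone 4 on NaCl. Its 2 standard zone 3 arrays differed by more than those of most members, and both lay far below the NaCl ones. AT5G40860 read 289 and 337 in standard zone 3, 443 and 382 in standard zone 4 and 964 and 1158 in NaCl zone 3, and no other group reached this last level. AT5G53710 and AT1G01130 likewise were highest in NaCl zone 3. The first read 60.3 and 60.1 on standard medium and 250.3 and 282 on NaCl there, and the second 22.3 and 20.3 on standard medium and 116 and 109 on NaCl. AT4G17215 read 229 and 326 on standard medium and 1648 and 1771 on NaCl in zone 3, AT1G30750 read 474 and 719 on standard medium and 3096 and 3521 on NaCl, and AT5G51680 read 85.2 and 126 on standard medium and 380.0 and 495 on NaCl. AT2G36220 went from 46.3 and 54.9 to 264 and 179, AT2G22080 from 154 and 143 to 496 and 482, and AT3G51540 from 7.45 and 1.81 to 50.5 and 40.2. AT3G19660 read 2.98 and 15.6 on standard medium and 63.6 and 81.7 on NaCl in zone 3, against 120.2 and 93.5 in the standard tip and 814 and 830.4 in standard zone 4. By gene order in the RefSeq annotation no 2 members were next to each other: the closest pair, AT2G38800 and AT2G38870, lay 7 genes apart.

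Where the members are high in the unsalted root was tested without any zone 3 array, so that no value behind their zone 3 difference entered. The rule did use the arrays of the other zones, but only as NaCl minus standard within a zone. Zone 4 was compared with the mean of zones 1 and 2 in 1 limma model of the 12 arrays of these zones. Of the 40 members, 35 were higher in zone 4, where 34.1% of all 16816 probe sets tested were, and none was lower, where 38.2% were. At an unadjusted p under 0.05 the count of lower members was also 0 (limma). Without any filter on signal the counts were again 35 and 0 of 40, against 26.9% and 28.3% of all 22746 probe sets. The filter let 38 members through, and 18 of those passed only with the help of their zone 4 arrays. These had no more than 1 array of zones 1 and 2 above the filter level, which favours a higher zone 4. The median difference of all 40, without the filter, was 2.88 on the log2 scale, and that of all probe sets -0.01.

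The steepest of these differences belonged to AT4G13580, one of the dirigent genes, at 8.20 (SE 0.30, adjusted p = 9.44e-12). AT4G02090 followed with 7.02, AT4G17215 with 6.91, AT1G30750 with 6.81 and the other dirigent gene, AT2G21100, with 6.61. All 5 had signals of at most 63.2 in zones 1 and 2, so the sizes depend on the pseudocount: AT4G13580 gave 6.78 with a pseudocount of 64. SGN1 was higher by 4.87 (SE 0.28, adjusted p = 1.03e-09) and the proteinase inhibitor gene AT2G38870 by 4.94 (SE 0.15, adjusted p = 1.67e-12). AT4G13580, AT4G02090, AT4G17215, AT1G30750 and SGN1 passed the filter only with the help of their zone 4 arrays. Being tested thus favoured a higher zone 4 in them, so their sizes and p-values are a description.

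Small differences closed the order. AT1G60610, a RING ligase gene, was higher in zone 4 by 0.76 (SE 0.21, adjusted p = 0.00438), a call lost without standard replicate 8 of zone 4 (0.53, adjusted p = 0.0949). The call of AT1G26800, another of them, was lost without standard replicate 7 (0.98, adjusted p = 0.0733). AT5G50010, a helix-loop-helix factor gene, was higher by 0.69 (SE 0.28, adjusted p = 0.0379). Its call was lost in 8 of 20 alternatives, with adjusted p between 0.0138 and 0.191. AT1G26800 and AT5G50010 also passed the filter only with the help of their zone 4 arrays. The 3 tested members that did not pass were IAGLU at 0.19 (SE 0.16, adjusted p = 0.301), the mannosidase gene AT3G26720 at 0.10 (SE 0.16, adjusted p = 0.575) and the formin gene AT5G07740 at -0.18 (SE 0.32, adjusted p = 0.632). Centring the arrays on their medians turned the sign for IAGLU and AT3G26720. AT1G01130 and AT2G15880 missed the filter and were not tested.

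**Figure D3:**
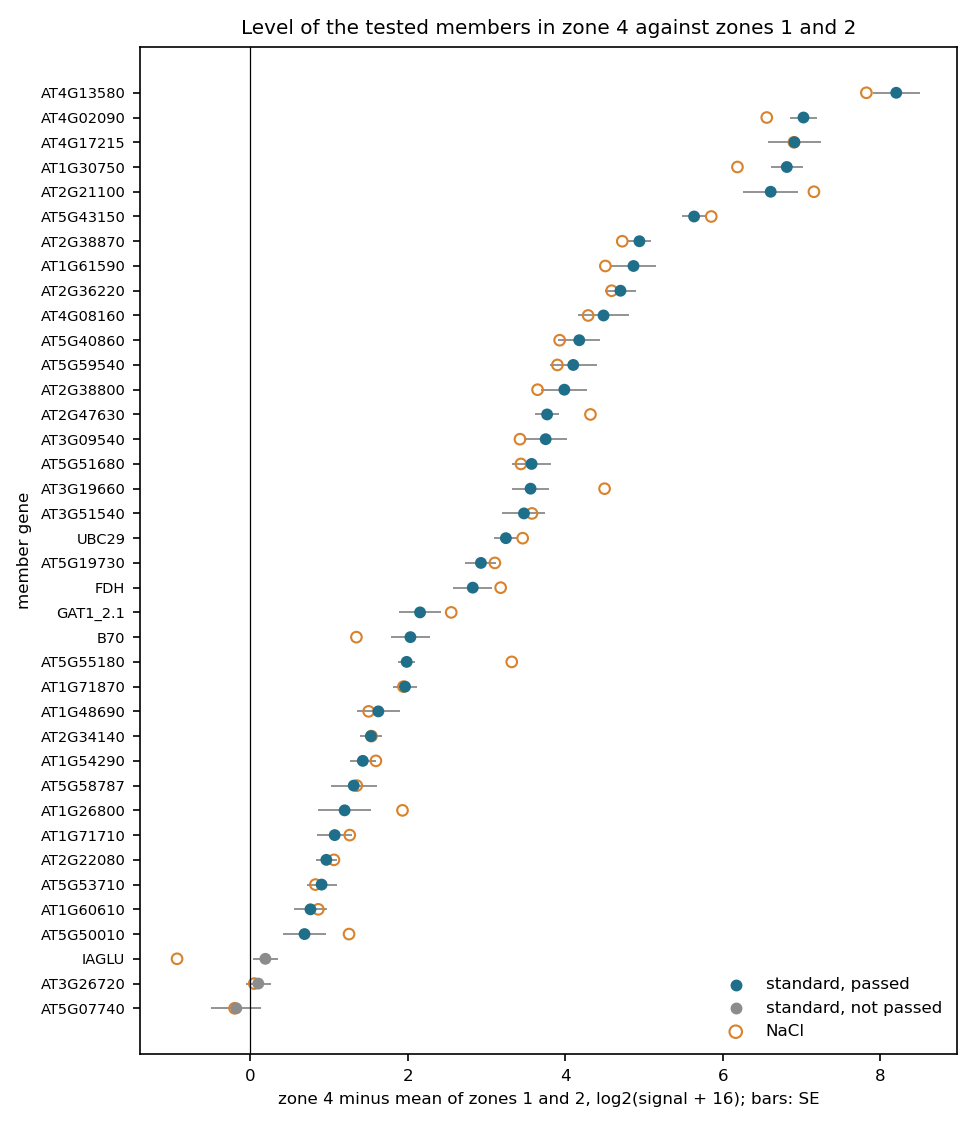
Zone 4 minus the mean of zones 1 and 2, in log2(signal + 16), for the 38 members tested, on standard medium (filled, with the SE) and on NaCl (open). On standard medium 35 passed the test, from 0.69 for AT5G50010 to 8.20 for AT4G13580, and 3 did not.

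This was not a mark of these 40 alone. Of the 63 probe sets that met the same limits without naming a single gene, 60 (95.2%) were higher in standard zone 4 than in zones 1 and 2. Of the 351 probe sets that met the zone 3 conditions but missed a limit in another zone, 281 (80.1%) were higher and 16 (4.56%) lower, without the filter. The difference between these shares and the members' 87.5% was not tested.

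**Figure D4:**
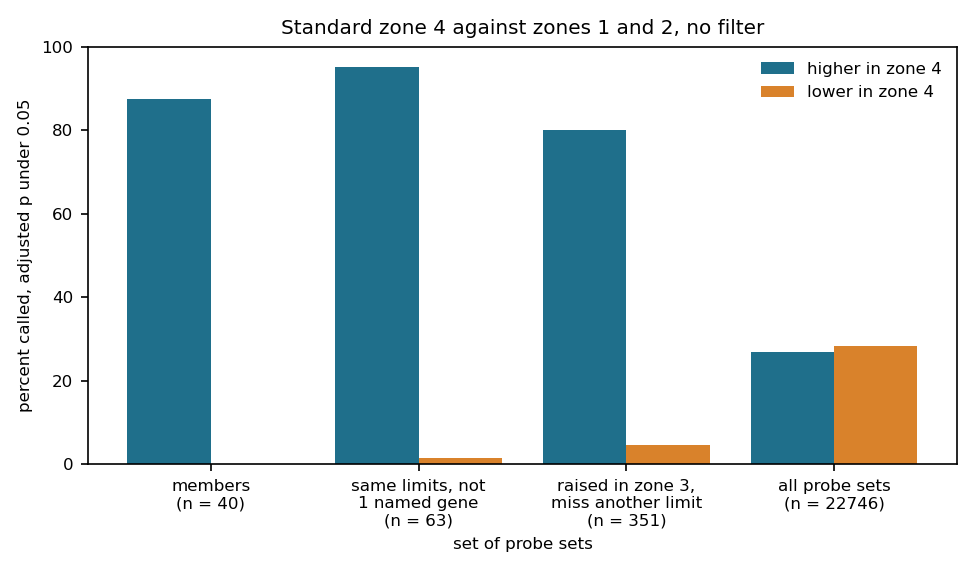
Percent of probe sets called higher or lower in standard zone 4 than in zones 1 and 2, without a filter, in 4 sets. The bars for higher stand at 87.5% in the 40 members, 95.2% and 80.1% in the other probe sets with a zone 3 increase, and 26.9% in all 22746.

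The rule kept NaCl minus standard within limits in zones 1, 2 and 4, so the same comparison on NaCl largely repeats the one on standard medium and is no separate support. Of the 40 members 35 were higher in NaCl zone 4 than in NaCl zones 1 and 2, beside 31.9% of all probe sets tested, and 1 was lower, beside 40.1%. Without the filter, which 18 members passed only with the help of zone 4 arrays, the counts were 36 and 1 of 40. Of all 22746 probe sets, 24.5% were higher and 29.9% lower. The lower one was IAGLU, at -0.93 (SE 0.16, adjusted p = 0.000121). AT4G13580, one of those 18, was higher by 7.82 (SE 0.30, adjusted p = 1.67e-11) and AT2G21100 by 7.16 (SE 0.35, adjusted p = 1.65e-10). AT5G55180, the glucanase family gene, was higher by 3.32 (SE 0.11, adjusted p = 4.44e-12), and on standard medium by 1.99. The members that did not pass were AT3G26720, at 0.05 (SE 0.16, adjusted p = 0.786), and AT5G07740, at -0.20 (SE 0.32, adjusted p = 0.59). Each of these 2 turned in sign in some alternatives. The smallest increase that passed was that of AT5G53710, at 0.83 (SE 0.19, adjusted p = 0.00129).

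Between the tip and zone 2 of the standard root fewer members differed. In zone 2, 12 of the 40 were lower than in zone 1, beside 19% of all probe sets tested, and 1 was higher, beside 15.1%. The higher one was the pectin methylesterase gene AT5G19730, at 0.70 (adjusted p = 0.0284), whose call was lost without a filter (0.70, adjusted p = 0.0523) and without any 1 of the 4 standard arrays of zones 1 and 2 (adjusted p from 0.0525 to 0.155). The steepest decreases were in AT2G38800, for the calmodulin-binding protein, at -2.31 (adjusted p = 0.000125), AT5G55180 at -2.11 (adjusted p = 2.55e-08) and AT5G58787 at -1.99 (adjusted p = 0.000427). AT3G19660 followed at -1.56 (adjusted p = 0.000527) and AT1G60610 at -1.55 (adjusted p = 0.000215). Under quantile normalization or median centring 4 of the 12 calls were lost, those of AT5G50010, AT5G43150, AT2G34140 and AT3G09540. Over all probe sets the split turned from 2537 higher and 3193 lower to 3366 and 2099 with median centring, and to 2812 and 2510 with quantile normalization.

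The standard and the NaCl arrays of zone 3 both chose the members, so the levels of zone 3 beside those of other groups are a description. Among the 4 standard groups, the level was highest in zone 4 for 36 members, as for 31% of all probe sets, and lowest in zone 3 for 13, as for 23.9%. How far NaCl zone 3 came toward the unsalted zone 4 was read from the arrays directly. On standard medium both zone 4 arrays exceeded both zone 3 arrays for 39 of the 40, beside 34.6% of all probe sets, and lay below for none, beside 28.8%. The exception was AT2G15880, whose zone 4 arrays read 21.7 and 1.87. The NaCl zone 3 arrays lay below both standard zone 4 arrays for 20 members (32.2% of all probe sets did), overlapped them for 7, and lay above both for 13 (28.3%). The median distance, NaCl zone 3 minus standard zone 4, was -0.18 on the log2 scale, with a range from -3.25 for AT3G19660 to 1.66 for AT5G53710.

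The order had long tails on both sides. Far below zone 4 stayed AT3G19660 (-3.25), the proteinase inhibitor gene AT2G38870 (-3.22), the glucanase family gene AT5G55180 (-2.16), AT3G51540 (-1.98) and the dirigent gene AT2G21100 (-1.91). Above zone 4 stood AT5G53710 (1.66), the phosphatase gene AT1G71710 (1.39), AT5G40860 (1.33), GAT1_2.1 (1.24) and AT1G01130 (1.15). The rule picked raised NaCl zone 3 arrays, so the next count is a description. For 8 members both NaCl zone 3 arrays were the highest of all 16, beside 3.34% of all probe sets. These were GAT1_2.1, AT1G71710, B70, AT5G53710, AT1G01130, AT5G50010, AT5G40860 and AT2G15880. Their NaCl zone 3 means ran from 37.0 for AT2G15880 to 1061 for AT5G40860.

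**Figure D5:**
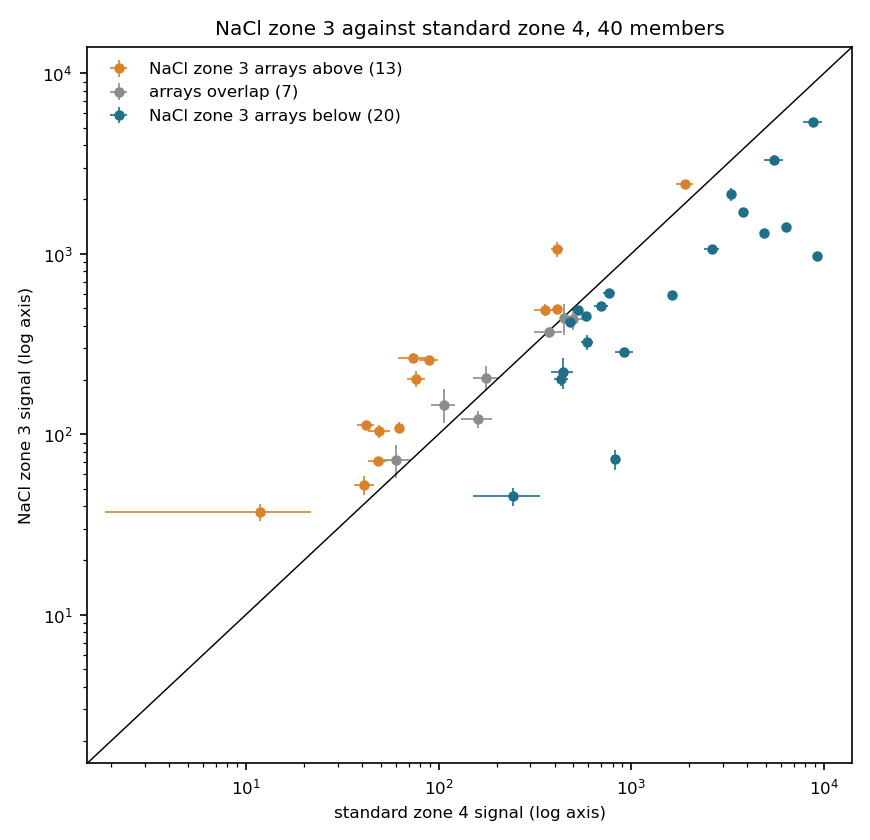
Mean signal of the 40 members in NaCl zone 3 against standard zone 4, on log axes, with bars spanning the 2 arrays and a line where both are equal. For 20 members the NaCl zone 3 arrays lie below, for 7 they overlap and for 13 they lie above. The members brightest in standard zone 4 lie below the line, while IAGLU, at 2435 in NaCl zone 3, lies above it.

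Markers of other cells and states were set beside these values. Root hair genes, of which the probe table named 4 of 17 listed (EXPA7, EXPA18, SCN1 and XTH26), summed to 5136 and 5820 on the standard zone 3 arrays and to 9641 and 10146 on the NaCl ones. They summed to 8123 and 8237 in standard zone 4, and to 2935 and 3515 in NaCl zone 4. In that zone all 4 fell on NaCl, with a median of -1.42, where 6.56% of all probe sets tested were called lower. In zone 3, 2 of the 4 rose and 2 did not pass, where 12.6% of all probe sets tested were called higher. The median was 0.63 against -0.01 over all probe sets tested. EXPA7 rose by 1.18 (SE 0.26, adjusted p = 0.00268, limma) and EXPA18 by 1.01 (SE 0.22, adjusted p = 0.00235, limma). Without standard replicate 5 of zone 3 EXPA18 no longer passed, at 0.75 (adjusted p = 0.0549). XTH26 was near background in zone 3 on NaCl too, at 2.73. SCN1 differed by 0.26 in zone 3 (adjusted p = 0.205, limma). It was bright in every zone and is part of the sums above, with means of 2018 in standard zone 3 and 2413 in NaCl zone 3. Of 25 dehydration genes listed, the probe table named 5, and 4 were measured. In zone 3, 3 of these rose and 1 did not pass, with a median of 2.01, again beside 12.6% of all probe sets tested called higher. LEA4-5, which encodes a protective protein of drying tissue, rose by 5.40 (SE 0.22, adjusted p = 1.01e-10, limma), the dehydrin genes LTI30 by 2.64 and COR47 by 1.38, and COR15B stood at 0.18 (adjusted p = 0.656, limma). The list was not limited to zone 3. Of the 4, 2 rose in zone 1 (median 1.55, with 5.01% of all probe sets tested called higher), 3 in zone 2 (median 2.86, with 6.2%) and 2 in zone 4 (median 0.70, with 5.52%). Their summed signal, COR15A included, was 6548 and 7769 on the standard zone 3 arrays, 25392 and 26477 on the NaCl ones, 17565 and 19457 in standard zone 4, and 27775 and 28499 in NaCl zone 4. The rule fixed the members' rise in zone 3 and kept each above -0.8 in zone 4. Nothing is therefore read from their course beside the root hair sum. The part of root hairs in the members' differences was not tested.

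At the threshold of 1.5 the choice turned on small steps. Just inside were AT4G08160 at 1.55, AT2G15880 at 1.54 and AT1G60610 at 1.54, and just outside AT5G01750 at 1.49, AT1G64050 at 1.49 and AT5G09430 at 1.48. Of the 40 members, 10 had a standard zone 3 mean under 16, so their differences depend on the pseudocount. Brighter ones did too: with a pseudocount of 64, 22 of the 40 fell below 1.5, UBC29 among them. UBC29 had a standard zone 3 mean of 194 and then gave 1.39. By the same rule 131 genes qualified with a pseudocount of 1, 26 of them among the 40, and 25 with 64, 18 of them among the 40. The arrays of zone 3 mattered too. Standard replicate 6 read higher than replicate 5 for 28 of the 40 members, and for 49.3% of all probe sets. Without replicate 6 the rule gave 64 genes, 38 of the 40 among them. Without replicate 5 it gave 44, and AT5G58787, AT5G50010, AT4G08160, AT1G48690, AT3G19660, AT3G09540, AT1G60610 and UBC29 left the list. Their lowest zone 3 difference was then 0.84.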

How the data were processed

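RNA was measured on Affymetrix ATH1 arrays after two-cycle amplification, per the labels' protocols. The deposited values are signal intensities made with MAS5, per the submitters' processing notes, and the array means, trimmed by 2% on both sides and without control probe sets, ranged from 248.1 to 248.6. No further normalization was applied. Signals were analysed as log2(signal + 16), so a difference understates the change of faint genes. Gene names came from the platform's probe table, which named 1 gene for 13513 probe sets, several for 503 and none for 8730. Roles come from general annotation.

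The 64 control probe sets were left out. Testing required a signal above the 40th percentile of the values on 2 or more arrays (41.4 over 16 arrays, 41.5 over the 12 of zones 1, 2 and 4). limma 3.58.1 (R 4.3.3) fitted the group means, with lmFit and eBayes with trend. Tests were two-sided, with Benjamini-Hochberg adjustment over all 17093 or 16816 probe sets, with a threshold of 0.05. The procedure was tested on simulated data. The number of arrays, 2 per group, limits the precision: the median SE was 0.21 for a salt difference and 0.18 for zone 4 against zones 1 and 2. The labels do not say whether replicates came from separate cultures, and p-values may measure the spread between these samples only. For replicate numbers shared by groups no common deviation of the arrays was seen: deviations correlated between -0.0153 and 0.0576. Such values cannot show whether arrays with the same number were handled together.

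The members and gene lists were chosen with earlier results of these data known. Genes named are the 15 members with the largest zone 3 difference, up to 4 per functional class, the extremes of each zone comparison, those beside the threshold and up to 4 per list. Further members were named after their values were seen, so that all 40 are described. Alternatives were quantile normalization, median centring, pseudocounts of 1 and 64, other filters, other sets of arrays in the model, no variance trend, a replicate block and each array left out in turn.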

Additional observations from a re-analysis of the deposited data

Results flagged for a closer look

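For several members the 2 media lay apart without overlap in another zone, in the direction opposite to zone 3. They were 6 of the 40 in zone 1 (15%), 8 in zone 2 (20%) and 8 in zone 4 (20%). Of all probe sets, 20.2%, 23.1% and 25.1% lay below in these zones. Each share of members was thus no higher than that of all probe sets. The difference between the zones was not tested, and zone 3 chose the genes. In zone 1 the NaCl minus standard values were -1.32 for AT5G50010, -1.32 for AT3G19660, -0.85 for AT5G55180, -0.68 for AT1G01130, -0.16 for AT2G22080 and -0.15 for AT3G51540. In zone 2 they were -0.70 for AT5G55180, -0.69 for AT3G19660, -0.56 for AT1G01130, -0.48 for AT1G60610 and -0.35 for AT1G30750. Smaller ones in zone 2 were -0.20 for AT2G47630, -0.19 for AT2G22080 and -0.15 for AT1G48690. In zone 4 they were -0.77 for AT1G30750, -0.74 for IAGLU, -0.72 for B70, -0.60 for AT4G13580, -0.57 for AT4G02090, -0.55 for AT1G01130, -0.42 for AT1G61590 and -0.33 for AT3G09540. AT1G01130 was the only member whose NaCl arrays lay below both standard arrays in each of the 3 other zones.

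Outside the genes described, 62 probe sets met every limit of the rule but are unnamed in the probe table.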

How the results depend on the processing

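With 2 arrays a group, the membership depended on the pseudocount (131 genes with 1, 25 with 64) and on single arrays (35 to 64 genes), and the cause was not tested. Genes added by these settings were not screened for excluded families beyond the 3 removed. The count of members higher in standard zone 4 ranged from 33 to 35 with each array left out, with 0 lower throughout. Under NaCl it was 35 higher and 1 lower each time. A replicate block on the 6 NaCl arrays gave the same 35 and 1, and 5308 higher and 6571 lower over all probe sets. With a filter at the 60th percentile, which tests fewer probe sets, 29 members were higher on either medium. On standard medium 0 were lower, and on NaCl 1 was. Over all probe sets this filter gave 4708 higher and 5564 lower on standard medium, and 4551 and 5802 on NaCl. The number tested with it was not counted, so no share is given and nothing is read from the 29. Between zones 1 and 2, 8 to 12 members were lower and 0 to 1 higher with an array left out, and 0 were higher without a filter.

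Over all probe sets, leaving out an array gave 5176 to 5758 higher and 5726 to 6461 lower in standard zone 4. In NaCl zone 4 it gave 4827 to 5368 and 5948 to 6767, and for zone 2 against zone 1 it gave 1698 to 2554 and 1891 to 3239. For salt in zone 3, where only the arrays of that zone were left out, it gave 1484 to 1714 and 1359 to 1751. Median centring left 2099 lower in zone 2. It moved the median of all probe sets by -0.19 for standard zone 4, by -0.11 for NaCl zone 4 and by 0.17 for zone 2 against zone 1. Quantile normalization moved them by -0.12, -0.06 and 0.11.

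Signs turned for members that did not pass the test, and the cause was not tested. With median centring, standard zone 4 minus zones 1 and 2 became -0.00062 for IAGLU and -0.090 for AT3G26720, and the NaCl value of AT3G26720 became -0.056. Without NaCl replicate 1 of zone 2 the NaCl values were -0.02 for AT3G26720 and 0.13 for AT5G07740, and without NaCl replicate 2 of zone 4 they were -0.24 and 0.01. With each array left out, the NaCl values ranged from -0.24 to 0.34 for AT3G26720 and from -0.53 to 0.13 for AT5G07740. Zone 2 minus zone 1 of AT5G59540 became -0.10 without standard replicate 3 of zone 2 and ranged up to 0.77.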
